A study of Mus musculus with 13 samples.

Results

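Transposon insertions inside long noncoding RNA genes were examined in 2 pools of mouse embryonic stem cells. A site was counted when it lay on chromosomes 1 to 19, inside a gene that GENCODE M21 classes as lincRNA and outside every protein-coding gene. The rule used positions and annotation and no read count. It found 1320 sites among 31146 in the plasmid pool, of which 29460 were on these autosomes, and 30 sites among 746 in the remobilized pool, of which 727 were on the autosomes. The 1320 sites lay in 857 lincRNA genes and the 30 sites in 27, out of 4970 lincRNA genes with some span outside coding genes.

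Both pools are F123 cells, a CastX129 hybrid embryonic stem cell line, labelled wild type and grown in serum-free medium with 2i and LIF. In the remobilized pool, the Sleeping Beauty transposons (TRACK-IT labels) of a parental line had been moved by expressing the transposase; the parental line itself was not analysed here. The transposons of the plasmid pool, the positive control of the study, had moved out of transfected plasmids present in many copies. In both, T7 RNA polymerase was run on purified genomic DNA from a promoter inside the transposon, and the RNA was sequenced to find where the transposon ends and the genome begins. Each pool is 1 library, and both carry the same sequencing batch label, so the tests compare these libraries and spans, not conditions, and p-values treat sites as independent although neighbouring sites may not be.

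A lincRNA gene is transcribed from its own promoter, spliced and often lowly expressed, but carries no known protein. Some lincRNAs act in the nucleus on neighbouring genes, others host microRNAs or small nucleolar RNAs, and for many no function is known. Sleeping Beauty moves by cut and paste and inserts at the dinucleotide TA, which ends up duplicated at the new site.

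The plasmid pool held 78338 reads, 63031 of them with a position, and the remobilized pool 2619, 2116 of them with a position. The control without transposons held 1 read, which had no position, and 0 sites. The lincRNA sites carried 2583 reads in the plasmid pool and 102 in the remobilized pool, with a median of 2 reads per site in both. Sites with 1 read made up 48.9% of the 1320 lincRNA sites, 44.0% of 13394 coding sites and 47.4% of 13978 intergenic sites of the plasmid pool. In the remobilized pool they were 10 of 30. At least 10 reads were reached by 6 lincRNA sites of the plasmid pool and 2 of the remobilized pool.

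Bases around a site could be read where it lay in a lincRNA exon, from GENCODE transcripts of GRCm38. The windows below run from 15 bases before the deposited base to 14 after it, on the plus strand, with the TA at or nearest to the site in capitals. The first pair are the best-supported exonic sites of the plasmid pool outside the crowded genes described later, with 41 and 10 reads, and the next 4 are exonic sites of the remobilized pool, each with 1 read.
I730028E13Rik, chr9:61144909-61144938: ctggggtccttgcaTAtgtaacactgtcgt
Gm32123, chr14:25112444-25112473: cccagttagagactTAtaatgcatgttaca
Gm17575, chr3:96387963-96387992: tcgagaggaagactTAgcaggaagacttag
Gm39323, chr9:44012091-44012120: ctgttgttatgaaaTAtaaagcagcaaggg
Gm47540, chr10:128596869-128596898: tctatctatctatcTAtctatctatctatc
Lockd, chr6:134955779-134955808: agatcagggccatgTAtctgcagaggccca
In all 6 windows the T of the TA lay at the base before the deposited one and the A at the deposited base.

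The last set is from genes with far more sites than their length would give. It shows 2 sites of Gm26870, with 19 and 3 reads in the plasmid pool, and 1 site of Gm42418, with 1 read in the remobilized pool.
Gm26870, chr9:3000587-3000616: cgtcctaaagtgtgTAtttctcattttccg
Gm26870, chr9:3000348-3000377: tttcacgtcctaaagtgtgtatttctcatt
Gm42418, chr17:39847422-39847451: ccgttgtagttccaaccataaacgatgccg
The 2 windows of Gm26870 start 239 bp apart and share a run of 25 bases, cgtcctaaagtgtgtatttctcatt. The second of them and the Gm42418 window had no TA within 2 bp of that fixed place.

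Over all exonic lincRNA sites of the plasmid pool that had 8 or more exonic bases to their left and right, 88 of 100 had a TA within 2 bp (88.0%, 95% exact Clopper-Pearson interval 80.0 to 93.6). In exons of protein-coding genes 1007 of 1085 did (92.8%, 91.1 to 94.3), and the difference did not pass Fisher's exact test (two-sided, p 0.110). The lower lincRNA share lay in the 9 genes called below for their number of sites. There 14 of 22 exonic sites had a TA (63.6%, 40.7 to 82.8), against 74 of 78 in the other lincRNA genes (94.9%, 87.4 to 98.6). In Gm42418 only 4 of 10 did, in Gm26870 3 of 5, and in Gm26573 5 of 5. The remobilized pool had a TA at 4 of its 5 exonic lincRNA sites.

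The bases around the TA were then counted. At 67 exonic lincRNA sites with TA at the fixed place, 75.4% of the bases 1 bp from the TA were A or T, 53.0% of those 2 bp away and 85.1% of those 3 bp away. At 781 sites in protein-coding exons the shares were 67.3%, 52.1% and 84.9%. In both kinds of exon the share 3 bp out was thus above those 1 and 2 bp out. These shares are descriptions and were not tested.

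The first comparison asked whether lincRNA genes took up insertions like coding genes or like the space between genes. LincRNA span of the plasmid pool held 12.4 sites per Mb (95% exact Poisson interval 11.8 to 13.1; 1320 sites on 106.3 Mb). Protein-coding span held 13.5 per Mb (13.3 to 13.7; 13394 sites on 992.0 Mb), and intergenic span, outside every annotated gene, 11.3 per Mb (11.1 to 11.5; 13978 sites on 1241.1 Mb). The lincRNA density was 0.920 times the coding one (0.869 to 0.973; two-sided exact binomial test against the share of span, adjusted p over 4 ratios 0.00713). It was 1.10 times the intergenic one (1.04 to 1.17; exact binomial, adjusted p 0.00312). The order was thus coding, lincRNA, intergenic, with both steps past the threshold. The second step did not pass with at least 2 reads per site (1.07, exact binomial, adjusted p 0.179) or with merging within 1 kb (1.06, exact binomial, adjusted p 0.140), and with at least 5 reads the ratio was 0.889 (exact binomial, adjusted p 0.587).

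The step above intergenic span was then taken without the most crowded genes. Without the 9 lincRNA genes called below, which held 148 of the 1320 sites (11.2%) on 1.20 Mb (1.13% of the span), lincRNA density was 11.2 per Mb (10.5 to 11.8) and its ratio to intergenic span 0.990 (0.932 to 1.05; exact binomial, adjusted p 0.762). The step below coding span was then wider, at 0.826 (0.777 to 0.877; exact binomial, adjusted p 5.35e-10). Leaving out 100 kb windows with at least 10 sites gave 1.03 against intergenic span (exact binomial, adjusted p 0.387). The 9 called genes were taken from lincRNA span alone, and the 21 coding genes called by the same test stayed in. Both ratios without the 9 genes therefore had to fall. The windows, chosen for their many sites, were cut from every span, which left 1228 lincRNA, 13172 coding and 13897 intergenic sites.

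**Figure D1:**
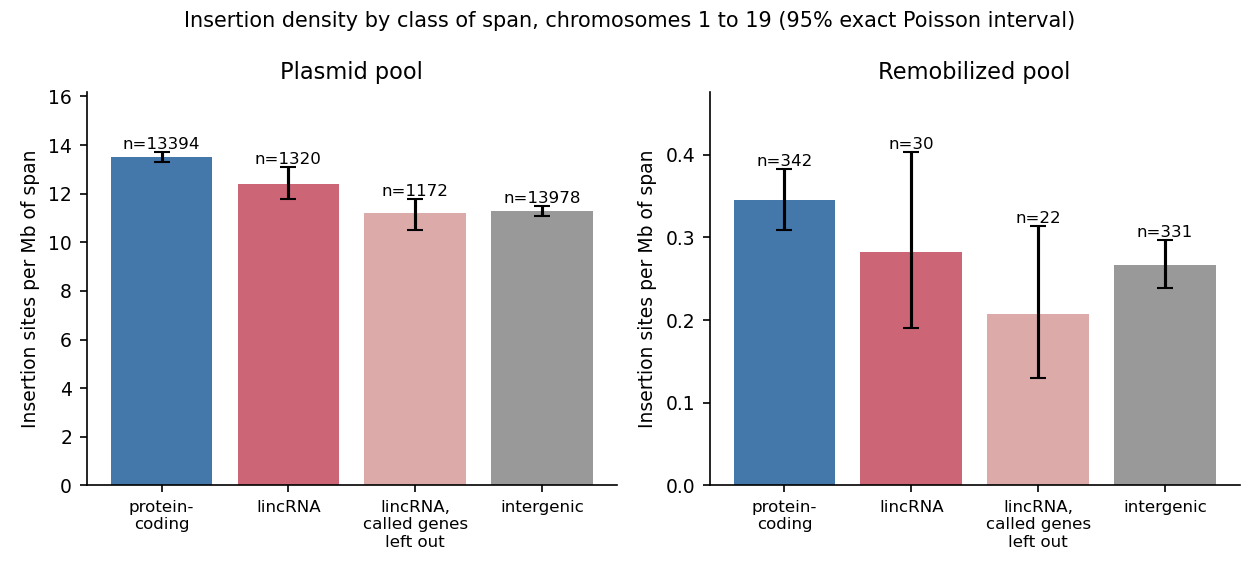
Insertion sites per Mb (bars, linear axis from 0) in protein-coding, lincRNA and intergenic span of chromosomes 1 to 19, with 95% exact Poisson intervals and the number of sites, for each pool (1 library each). In the plasmid pool lincRNA span, at 12.4, stands between coding (13.5) and intergenic span (11.3), and at 11.2 without the called genes; in the remobilized pool the lincRNA interval spans both others.

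The remobilized pool gave no stable place for lincRNA span. Its density was 0.282 sites per Mb (0.190 to 0.403; 30 sites), against 0.345 (0.309 to 0.383; 342 sites) in coding and 0.267 (0.239 to 0.297; 331 sites) in intergenic span. The ratio to coding span was 0.819 (0.544 to 1.19; exact binomial, adjusted p 0.446) and to intergenic span 1.06 (0.703 to 1.54; exact binomial, adjusted p 0.769). The ratio to coding span passed the threshold in 3 of 12 alternatives: 0.583 with coding genes extended by 5 kb, 0.547 without the 5 lincRNA genes with most sites and 0.601 without the called ones (exact binomial, adjusted p 0.0155, 0.0114 and 0.0330). The last 2 leave out genes for their many sites, which lowers the density by construction. Of the 30 sites, 11 lay on chromosome 6, which held 244 of the 727 autosomal sites of this pool, and without it the ratio to intergenic span was 0.995 (19 lincRNA sites; exact binomial, adjusted p 1.00).

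The share of autosomal sites in lincRNA span was 4.13% (95% exact Clopper-Pearson interval 2.80 to 5.84) in the remobilized pool and 4.48% (4.25 to 4.72) in the plasmid pool. The difference of -0.355 percentage points was not detectable at this depth (Fisher's exact test, two-sided, p 0.717). On chromosome 6 alone the shares were 4.51% (11 of 244 sites; 2.27 to 7.92) and 2.85% (50 of 1755; 2.12 to 3.74), and on the other autosomes 3.93% (2.38 to 6.08) and 4.59% (4.34 to 4.84).

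The density of lincRNA sites was also set against the distance to coding genes. For the plasmid pool it was 21.5 per Mb (18.2 to 25.2; 153 sites) within 10 kb of a coding gene, 14.6 (328 sites) from 10 to 50 kb, 11.2 (440 sites) from 50 to 200 kb and 10.7 (399 sites) beyond. Intergenic span at the same distances held 12.7, 11.9, 11.0 and 10.3 per Mb. The lincRNA to intergenic ratio was 1.69 (1.42 to 1.99) in the nearest class and 1.22 (1.09 to 1.37) in the next (exact binomial, adjusted p over 4 classes 1.99e-08 and 0.00120). The nearest class did not pass with merging within 1 kb (1.21, exact binomial, adjusted p 0.104) or with coding genes extended by 5 kb (1.18, exact binomial, adjusted p 0.228), nor the next with at least 2 reads per site (1.09, exact binomial, adjusted p 0.589). In the 2 far classes it was 1.02 and 1.03 (exact binomial, adjusted p 0.684 for both). Without the 9 called genes the 2 near ratios fell to 1.07 and 1.04 (exact binomial, adjusted p 0.524 for both). The lincRNA densities were then 13.7, 12.4, 10.5 and 10.7 per Mb.

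The remobilized pool fell off more steeply with distance. Of its 30 lincRNA sites 11 lay within 10 kb of a coding gene (1.54 per Mb, 0.771 to 2.76), 11 from 10 to 50 kb (0.488), 6 from 50 to 200 kb (0.153) and 2 beyond (0.0534, 0.00647 to 0.193). The nearest class was 28.9 times as dense as the farthest (6.31 to 268.6), against 2.02 times (1.66 to 2.44) in the plasmid pool. Without the called genes of each pool, the nearest and farthest lincRNA classes held 1.13 and 0.0534 per Mb in the remobilized pool. In the plasmid pool they then held 13.7 and 10.7. Intergenic span had a like fall, 10.7 times (6.97 to 16.9) in the remobilized pool and 1.24 times (1.18 to 1.30) in the plasmid pool, so the steeper fall was not seen in lincRNA span alone. Without chromosome 6 the lincRNA ratio of the remobilized pool was 32.3, on 6 sites against 1.

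**Figure D2:**
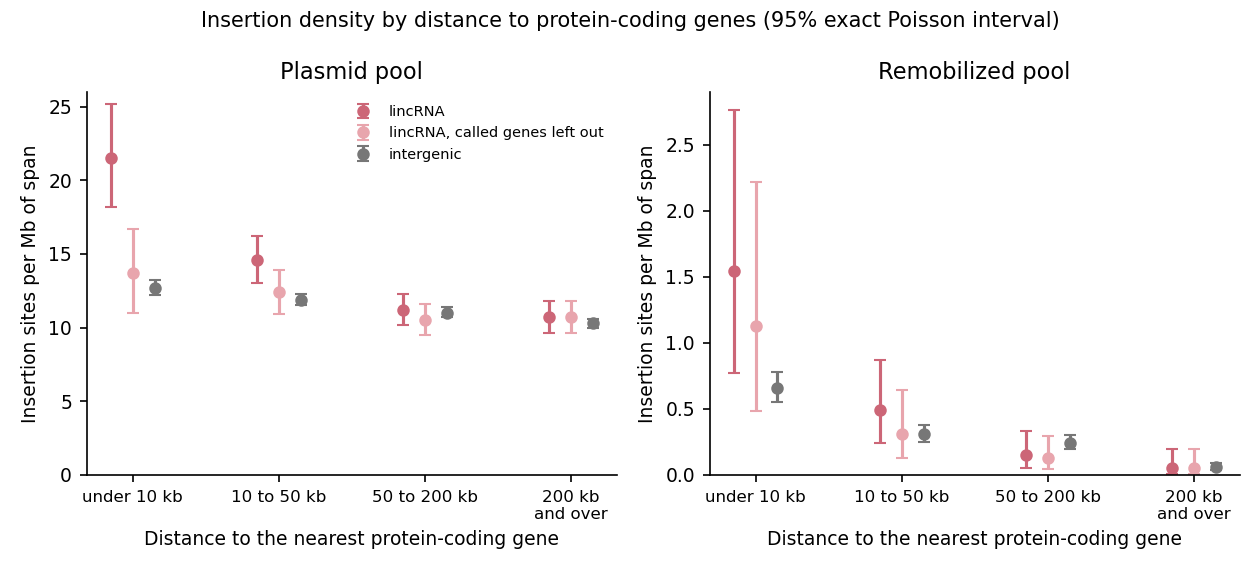
Insertion sites per Mb of lincRNA span, of lincRNA span without the called genes and of intergenic span (points, 95% exact Poisson intervals), by distance of the base to the nearest protein-coding gene, for each pool. LincRNA span of the plasmid pool stands clear of intergenic span in the 2 near classes (21.5 against 12.7 and 14.6 against 11.9), and the points without the called genes (13.7 and 12.4) have intervals that reach the intergenic values.

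Strand was then compared with that of the host gene. The deposited strand of an insertion was that of the gene at 631 lincRNA sites of the plasmid pool and the other at 619, or 50.5% (95% exact interval 47.7 to 53.3; exact binomial, two-sided, adjusted p over the pools 0.756). A further 70 sites lay in lincRNA genes of both strands and were left out. In the remobilized pool 11 sites were on the strand of the gene and 14 on the other (44.0%, 24.4 to 65.1; exact binomial, adjusted p 0.756), with 5 left out. A preference for either orientation was thus not detectable, and in this setting the interval of the plasmid pool keeps the share within 3.29 percentage points of equal. Other settings allow more. The interval was 46.1 to 52.0 without the called genes, 45.7 to 51.6 with coding genes extended by 5 kb and 45.1 to 53.0 with at least 2 reads per site.

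Within the genes, a difference between exons and introns was not detectable in the plasmid pool. Exons held 101 sites on 7.12 Mb (14.2 per Mb, 11.5 to 17.2) and introns 1219 on 99.2 Mb (12.3 per Mb, 11.6 to 13.0), a ratio of 1.15 (0.932 to 1.41; two-sided exact binomial test, p 0.169). Without merging neighbouring positions the ratio was 1.27 (exact binomial p 0.0166), and without the called genes 0.996 (exact binomial p 1.00). The first 2 kb from the gene start held 99 sites on 8.99 Mb (11.0 per Mb), and the rest 12.5 per Mb (ratio 0.877, 0.708 to 1.08; exact binomial p 0.235). Along genes of at least 5 kb, the 5 equal parts from start to end held 12.4, 11.6, 12.8, 11.7 and 14.7 sites per Mb. The last part was the highest. Without the called genes the values were 10.9, 10.7, 11.8, 10.2 and 12.6.

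The remobilized pool held more at the gene starts. The first 2 kb had 9 of the 30 sites, 1.00 per Mb (0.458 to 1.90), and the rest held 21, 0.216 per Mb (0.134 to 0.330), a ratio of 4.64 (1.87 to 10.6). Exons held 5 sites (0.702 per Mb, 0.228 to 1.64) and introns 25 (0.252, 0.163 to 0.372). The comparison of gene starts was made after the values were seen. Of the 9 sites 5 were within 10 kb of a coding gene, 4 were on chromosome 6 and 3 had 1 read. They were in Gm37502 at 546 bp from its start (4 reads), Gm17575 at 886 bp (1 read), 1700012C14Rik at 316 bp (5 reads), Gm6559 at 1072 bp (4 reads), Gm44077 at 491 bp (2 reads), Halr1 at 561 bp (2 reads), Gm47540 at 1269 bp (1 read), Gm42418 at 479 bp (1 read, also inside AY036118) and 1700086O06Rik at 1656 bp (2 reads).

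**Figure D3:**
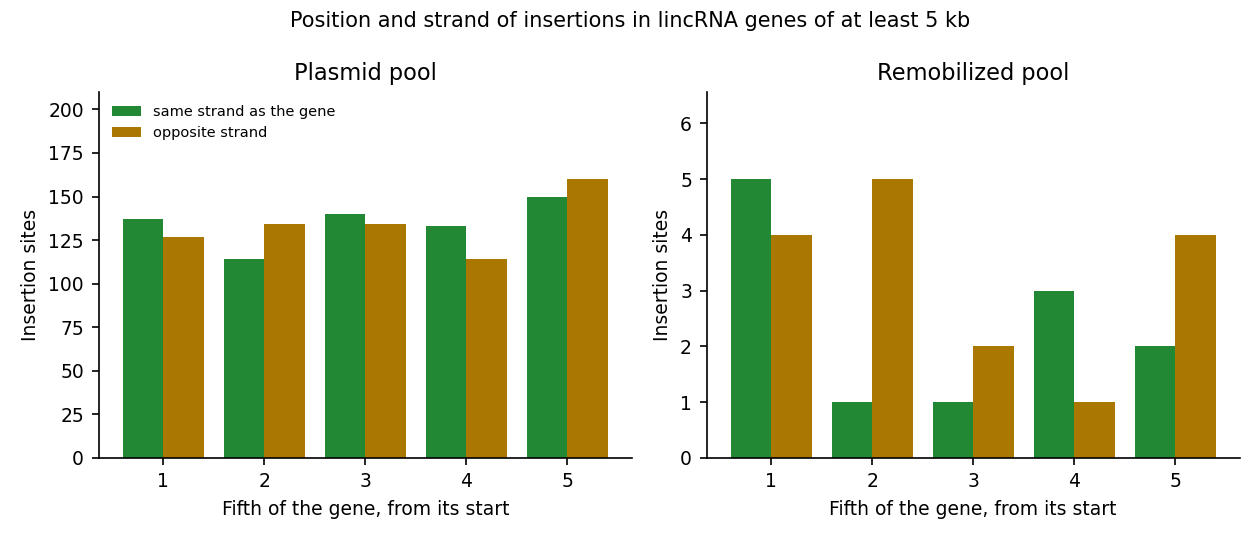
Number of insertion sites (bars) in each of 5 equal parts of lincRNA genes of at least 5 kb, from the gene start (1) to its end (5), by strand relative to the gene, for each pool. A site in several genes is counted in each; in the plasmid pool the strands hold between 114 and 160 sites in each part with no steady excess of one strand, and the remobilized pool has at most 5 in any bar.

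The genes themselves were then compared. Each of 25777 lincRNA and protein-coding genes was tested for more or fewer sites than its share of the autosomal span gives (two-sided exact binomial test, Benjamini-Hochberg over all genes). For the plasmid pool 30 genes were called, 0.116% of those tested, all with more sites than expected, and 9 of them were lincRNA genes, out of 4970. Too few sites were expected in lincRNA genes for a shortage to be called readily. Gm11751, with 0 sites on 114.1 kb and 1.40 expected, had an unadjusted exact binomial p of 0.655. The direction of the lincRNA calls therefore does not show that no lincRNA gene was short of sites. The median span of a lincRNA gene was 7.71 kb, and most genes had no site: 4113 genes had 0 sites, 622 had 1, 223 had 2 to 5 and 12 had 6 or more. The number of sites rose with the span over the 4970 genes (Pearson's r 0.498, Spearman's rho 0.456; 0.652 and 0.456 without the called genes), as a description across genes of 1 library. Of the 1891 genes under 5 kb 2.75% had a site, of the 1746 from 5 to 20 kb 12.0%, of the 1116 from 20 to 100 kb 38.2%, and of the 217 of 100 kb and over 77.9%. The densities of these classes were 15.9, 14.7, 11.8 and 12.6 sites per Mb, and 11.6, 12.3, 11.7 and 10.1 without the called genes.

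The 9 called genes were crowded into a few places. Gm26870, at the start of chromosome 9 (3000282 to 3038313, minus strand), held 39 sites on 13.9 kb outside coding genes, where 0.170 were expected (exact binomial, adjusted p 5.23e-73). Its sites carried 92 reads, 23 of them had 1 read, and 37 of 39 were on the strand of the gene. Both Gm26870 windows shown above are from its exonic sites, of which it had 5.

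A chain of 3 lincRNA genes on chromosome 4, each overlapping at least 1 of the others, came next. Gm26573 (146153456 to 147024959, minus strand) held 35 sites against 8.39 expected, C230088H06Rik (147018235 to 147492201, minus strand) 34 against 4.03, and Gm26624 (147136278 to 147457019, plus strand) 24 against 2.68 (exact binomial, adjusted p 8.23e-09, 4.64e-17 and 3.50e-12). Their sites ran through the genes, over 867.7 kb, 468.3 kb and 257.0 kb, and the best-supported had 6 reads. All 24 sites of Gm26624 are also sites of C230088H06Rik, and 3 sites are shared by C230088H06Rik and Gm26573, so the 3 genes hold 66 distinct positions. Some positions in Gm26573 recur at like spacing and on the same strands. For example, 146217976, 146221118 and 146229077 are followed by 146558414, 146561564 and 146569501. Whether such runs are the same insertions placed in 2 copies of a sequence was not tested, so 66 separate insertions are not shown. Both strands were used, with 21, 16 and 13 sites on the strand of the gene. With them the lincRNA density of chromosome 4 was 19.2 per Mb, and without them 8.21.

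The other called genes lay on chromosomes 8, 17, 9 and 10. Gm26804 on chromosome 8 (20292477 to 20420781) held 19 sites against 1.26 expected, with 14 of 1 read (exact binomial, adjusted p 3.19e-13). Gm42418 and AY036118 on chromosome 17, which overlap on opposite strands and are known to overlap ribosomal RNA sequence, held 10 and 9 sites within 0.663 and 0.639 kb, all exonic and all on the plus strand (exact binomial, adjusted p 1.87e-20 for both). The 9 sites of AY036118 are among the 10 of Gm42418, so both calls rest on the same sites. Gm33838 on chromosome 9 (35301722 to 35307599) held 7 sites within 0.318 kb of an intron, all opposite to the gene (exact binomial, adjusted p 2.68e-09). In 4930555G07Rik on chromosome 10 (87230760 to 87297555) 7 sites were spread over 62.0 kb, against 0.819 expected (exact binomial, adjusted p 0.0213).

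With positions within 1 kb merged, 5 lincRNA genes were called, with at least 5 reads per site 2, and without 100 kb windows of at least 10 sites 4. Whether reads from repeated sequence were placed among several copies was not tested.

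**Figure D4:**
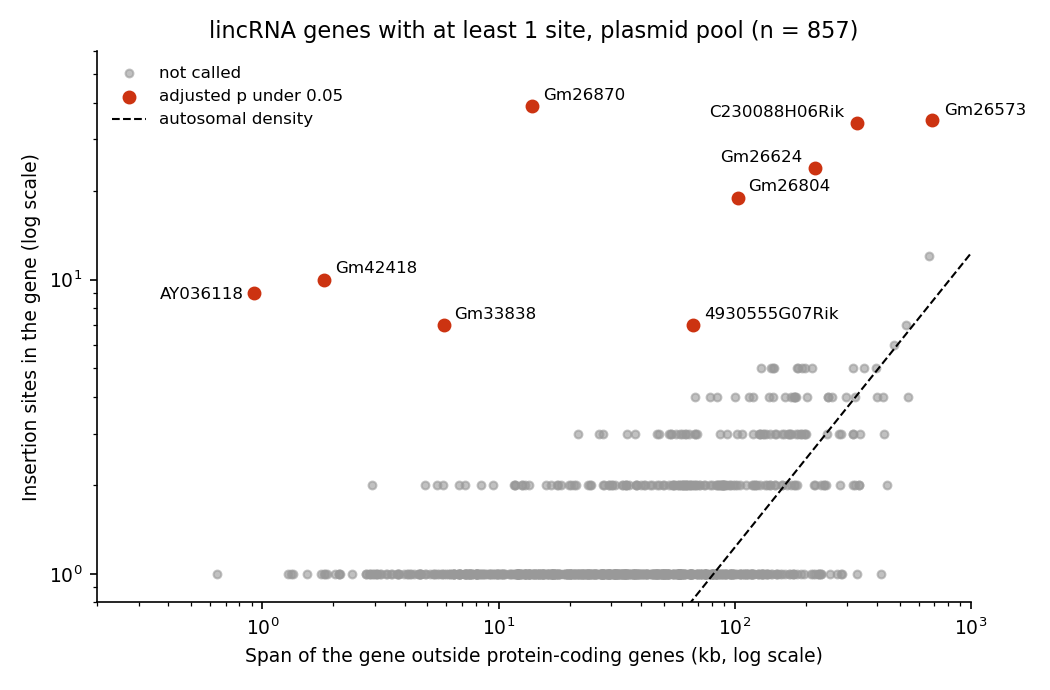
Number of plasmid pool sites in each of the 857 lincRNA genes with at least 1 site (points) against the span of the gene outside coding genes in kb, both axes log scale; the dashed line is the autosomal density, and called genes are labelled. Gm26870 (39 sites), the 3 genes on chromosome 4 (35, 34 and 24) and the short Gm42418 and AY036118 (10 and 9) lie far above the line, and Gm32647 (12 sites) lies near it.

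Among long lincRNA genes that were not called, the most sites were in Gm32647 on chromosome 7 (12 sites on 666.5 kb, 8.17 expected), Gm20754 on chromosome 3 (7 sites, 6.48 expected) and Gm49171 on chromosome 14 (6 sites, 5.79 expected). The 12 sites of Gm32647 lay on both strands, 6 and 6, over 577.1 kb. Of the 12 genes with 5 sites, the 8 densest were Gm36346, 4930513D17Rik, Gm43016, Gm26551, Gm26754, Gm35330, Gm43154 and D030068K23Rik, each with between 1.59 and 2.43 expected (adjusted p 1.00 for each, exact binomial). In Gm26551 all 5 were opposite to the gene. Gene for gene, 4930550C17Rik, Gm13166 and Gm26849 had the highest density among uncalled genes with at least 3 sites, at 138.1, 112.8 and 108.8 sites per Mb on 3 sites each (exact binomial, adjusted p 0.722, 0.880 and 0.928). The 3 sites of Gm13166 are also sites of the called gene Gm26573.

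The sites with the most reads were then listed. The site of I730028E13Rik shown above, in an exon on chromosome 9 at 61144924, had 41 reads. Next came Gm26870 at 3000602 with 19 reads, and 1700014F14Rik on chromosome 5 at 60944867 with 16, in an intron 782 bp from the gene start and opposite to it. B430319H21Rik (chromosome 11, 63177893) and Gm12606 (chromosome 4, 89240243, 34.2 kb from Cdkn2a) had 11 each, and the exonic site of Gm32123 (chromosome 14, 25112459) had 10. AC151478.2, 8430437L04Rik, Gm42825 and Gm42397 had 9 each. Apart from Gm26870, none of these genes was called for its number of sites.

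Genes with a known role were looked up in 6 lists. Of 43 listed genes that are annotated as lincRNA on the autosomes, 5 had a site in the plasmid pool (11.6%), against 17.2% of all 4970 lincRNA genes, and 0 had one in the remobilized pool (0.543% of all). These shares were not matched for span, with which the share of genes hit rises. Pvt1, the lincRNA next to Myc, had 3 sites on 340.1 kb with 4.17 expected, all intronic, 2 of them with 4 reads and 1 with 1 read; the list of developmental lincRNAs had 1 of 7 genes hit. Platr28, one of the transcripts named for their association with pluripotency, had 1 site with 4 reads and was the only one hit of 18 in its list. Mir155hg, the host of miR-155, was the 1 of 7 microRNA hosts with a site (1 read). Mirg, a maternally expressed microRNA host of the imprinted Dlk1 region, was the 1 of 3 imprinted lincRNAs (1 read, exonic). Gm26917, beside Gm42418 on chromosome 17, was the 1 of 5 in the list for nuclear lincRNAs (1 read); Malat1 and Neat1, lincRNAs of nuclear speckles and paraspeckles, had 0. The 5 small nucleolar RNA hosts, with a median span of 2.40 kb, had 0. None of the 43 genes was called, and Meg3, an imprinted lincRNA with 0 sites, stood in 3 of the lists.

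In the remobilized pool 13 genes were called (0.0504% of 25777), 4 of them lincRNA genes. The test expects sites evenly over the autosomes, and this pool was far from even: 126 of its 727 autosomal sites (17.3%) lay within 1 Mb of the best-supported site of the clonal line named 5kb (chromosome 6, 51321894), or 63.0 per Mb against 0.302 over all autosomes. For the 3 called lincRNA genes in that stretch the call therefore does not set the gene apart from its surroundings, and the number expected at the density of the stretch is given beside it. Gm44077 on chromosome 6 (52012601 to 52026986), next to Skap2 and about 0.7 Mb from that site, held 4 sites with 2, 2, 11 and 3 reads, where 0.906 were expected at the density of the stretch and 0.00435 at the autosomal one. Of the 4, 1 was on the strand of the gene and 3 were opposite. Gm26677 and Gm6559, 2 lincRNA genes that overlap on opposite strands of chromosome 6 (51379710 to 51392777 and 51379710 to 51392791), shared 2 sites with 4 reads each, 58.9 and 66.2 kb from the site of the 5kb clone, where 0.823 and 0.824 were expected at the density of the stretch. Whether these genes hold more sites than their surroundings was not tested.

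The exception away from chromosome 6 was C330019F10Rik on chromosome 11 (107511403 to 107527220). It held 2 intronic sites 0.368 kb apart at 107523875 and 107524243, with 15 and 8 reads, both on the same strand and opposite to the gene (exact binomial, adjusted p 0.0294). The call rests on counting them as 2 sites, since merging within 1 kb joins them into 1. The first is the best-supported lincRNA site of this pool. The plasmid pool had 0 sites in each of these 4 genes. Apart from this gene, the best-supported were the site in Gm44077 at 52019271 with 11 reads and one with 6 reads in Gm31518 on chromosome 8 at 95614356.

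Of the 11 lincRNA sites on chromosome 6, 7 lay within 1 Mb of the site of the 5kb clone. Besides those named they include Halr1, with 1 intronic site of 2 reads 781.6 kb away. The other 4 lay from 8791.3 to 83633.9 kb away, in Gm5570, 1700012C14Rik, Gm44036 and Lockd, a lincRNA near Cdkn1b. Outside chromosome 6, Trp53cor1, a lincRNA induced by p53 and located beside Cdkn1a, had 1 intronic site with 1 read, 20.5 kb from Cdkn1a and opposite to the gene.

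**Figure D5:**
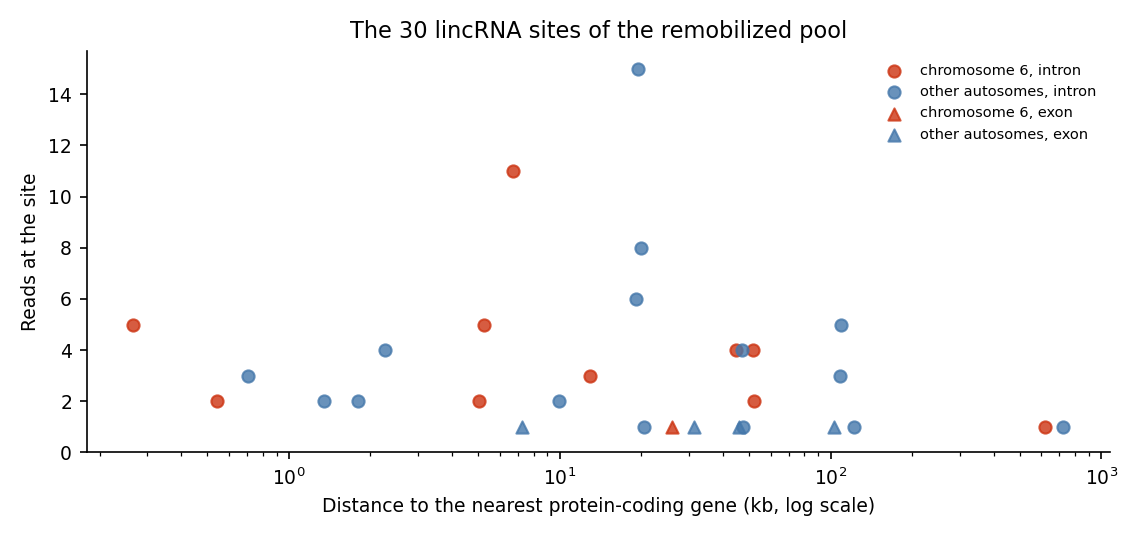
Reads at each of the 30 lincRNA sites of the remobilized pool against the distance to the nearest protein-coding gene in kb (log scale), by chromosome (colour) and by exon or intron (shape). The 5 exonic sites have 1 read each, the highest values are 15 reads in C330019F10Rik and 11 in Gm44077, and 22 of the 30 lie within 50 kb of a coding gene.

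Genes and positions hit in both pools were then counted. Of the 27 lincRNA genes hit in the remobilized pool 11 also had a site in the plasmid pool, 40.7% of the first and 1.28% of the 857 of the second, where 17.2% of all 4970 lincRNA genes had a site in the plasmid pool. Those were C230088H06Rik and Gm26624, which shared 2 sites in the remobilized pool, Gm42418 and AY036118, which shared 1, and Gm26848, Gm26887, 9630002D21Rik, Halr1, Lockd, 1700011C11Rik and Gm5570 with 1 each. The 17.2% takes no account of span: 77.9% of lincRNA genes of 100 kb and over had a plasmid pool site, against 2.75% under 5 kb. C230088H06Rik, Gm26624, Gm26848, 9630002D21Rik and Gm5570 each span over 100 kb. Whether the pools share more genes than span alone gives was not tested. Of the 30 sites, 1, in AY036118 and Gm42418, lay within 1 kb of a lincRNA site of the plasmid pool, 94 bp away.

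Across the 19 autosomes, all of the same library, lincRNA density in the plasmid pool averaged 12.5 ± 3.00 sites per Mb (SD over chromosomes). Chromosome 1 was lowest at 7.89 and chromosome 9 highest at 19.6. Without the called genes it was 11.2 ± 1.96, with chromosome 1 again lowest and chromosome 19 highest at 14.3. Of the 1320 sites 90 lay in 2 or more lincRNA genes, 32 also in an annotated pseudogene and 19 in an antisense gene. The median distance to the nearest coding gene was 91.2 kb in the plasmid pool and 20.2 kb in the remobilized pool.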

How the data were processed

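The authors deposited 1 table per library with a single-base position, a whole-number read count and a strand, with no normalization stated per the file layout. FastQC, BWA, deepTools and the build mm10 are named in the submitters' processing notes, without versions or roles; duplicate treatment and filters are not given in the sources used here, nor is the placement of reads from repeats. Counts carry no molecular identifiers, so intervals cover counting error only. Positions within 10 bp on either strand were merged into 1 site at the position with most reads, with no minimum. GENCODE M21 (GRCm38) gave the genes. Chromosome span ran from the end of the first 3 Mb to the last annotated gene, which left out 7 autosomal sites of the plasmid pool. Densities were compared by two-sided exact binomial tests against the share of span, shares by Fisher's exact test, with a threshold of 0.05 after Benjamini-Hochberg adjustment (scipy 1.17.1).

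Genes were named by a rule: the 20 with most sites and the 10 densest with at least 3 sites in the plasmid pool, genes with at least 2 sites in the remobilized pool or hit in both, listed genes with a site, and the 10 and 5 best-supported sites. Other genes of the remobilized pool were named after their values were seen. The 6 lists were small nucleolar RNA hosts, microRNA hosts, imprinted, nuclear, pluripotency-associated and developmental lincRNAs. The members and lists were chosen with earlier results of these data known. The statistics were tested on simulated data. The alternatives were other merging distances and read minimums, other gene sets and spans, and the leaving out of chromosome 6, of 1 Mb on each side of the best-supported site of the 5kb clone (the labels used here give no home site), of crowded windows and of crowded genes.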

Additional observations from a re-analysis of the deposited data

Results flagged for a closer look

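The contrasts between pools below were chosen after the values were seen and belong to a family of 6, with two-sided Fisher's exact tests adjusted over the 6. Each group is 1 library, so no sample was compared with others of its group.

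The first 2 kb of lincRNA genes took a larger part of the lincRNA sites in the remobilized pool (9 against 21 elsewhere) than in the plasmid pool (99 against 1221), an odds ratio of 5.29 (Fisher's exact test, adjusted p 9.93e-04). Without chromosome 6 it was 4.32, on 5 sites against 14 (adjusted p 0.0401 by the same exact test).

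Sites within 10 kb of a coding gene, against those 200 kb and over away, were more frequent in the lincRNA span of the remobilized pool (11 against 2) than of the plasmid pool (153 against 399), an odds ratio of 14.3 (Fisher's exact test, adjusted p 2.52e-04). Without chromosome 6 it was 15.7, on 6 sites against 1 (adjusted p 0.0156 by the same exact test). The contrast was not particular to lincRNA span. Intergenic span held 136 sites in the nearest class against 26 in the farthest in the remobilized pool. In the plasmid pool it held 2623 against 4331.

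The 9 clonal lines, labelled rad21-dTag and of another sequencing batch, were compared with no pool here; the site of the 5kb clone served as the reference for distances on chromosome 6. Of these, only the 70kb clone had a site in lincRNA span. It lay in introns of Gm26677 and Gm6559 on chromosome 6 at 51387333, with 243 reads, against 0 sites in the control.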

How the results depend on the processing

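No paired analysis was possible because each pool has 1 library. Leaving out genes or windows chosen for their many sites lowers lincRNA density by construction. The genes were taken from lincRNA span alone, and the windows from every span. Genes left out from a pool are its own called genes or its own 5 genes with most sites, except in the difference between pools, which leaves out those of both pools. Leaving out the called genes was added after the data were examined; for other changes the cause was not tested.

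In the plasmid pool the ratio to coding span stayed below 1 and past the threshold in 12 of 12 alternatives (0.619 to 0.929). Among these, leaving out the 5 lincRNA genes with most sites or the called lincRNA genes lowers this ratio by construction. The ratio to intergenic span no longer passed the threshold in 6 alternatives: it was 1.06 with merging within 1 kb, 1.07 with at least 2 reads, 0.889 with at least 5, 1.01 without the 5 genes with most sites, 1.03 without crowded windows and 0.990 without the called genes. In the class under 10 kb from a coding gene it also no longer passed at 1.21 with merging within 1 kb, 1.52 with at least 5 reads, 1.18 with coding genes extended by 5 kb, 1.08 without the 5 genes, 1.20 without crowded windows and 1.07 without the called genes. From 10 to 50 kb it no longer passed at 1.09 with at least 2 reads, 0.964 with at least 5, 1.08 without the 5 genes, 1.14 without crowded windows and 1.04 without the called genes. From 50 to 200 kb it was 1.000 and 0.990 with merging within 100 bp and 1 kb, 0.433 with at least 5 reads (11 sites, exact binomial, adjusted p 0.0130), 0.986 with extended coding genes, 0.982 without the 5 genes, 0.987 without crowded windows and 0.954 without the called genes.

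The share on the strand of the gene was 49.5% with merging within 1 kb, 49.1% with at least 2 reads, 48.7% with extended coding genes, 48.9% without the 5 genes, 49.4% without crowded windows and 49.0% without the called genes, never past the threshold. The exon to intron ratio was 1.27 without merging, 0.954 with merging within 1 kb and 0.996 without the called genes. With at least 5 reads it was 1.87 (7 exonic sites). The ratio of the gene start to the rest was 1.00 with at least 5 reads and 1.04 with the first 5 kb. The 9 called genes became 5 with merging within 1 kb, 2 with at least 5 reads, 4 without the 5 genes and 4 without crowded windows. The difference in TA share was 5.62 points with at least 5 reads and 2.06 without the called genes.

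In the remobilized pool the ratio to coding span was 1.03 with the wider noncoding set, and it passed the threshold at 0.583 with extended coding genes, 0.547 without the 5 genes and 0.601 without the called genes (exact binomial, adjusted p 0.0155, 0.0114 and 0.0330). The ratio to intergenic span was 0.995 without chromosome 6, 0.707 without the 5 genes and 0.776 without the called genes. The share on the strand of the gene was 56.2% without chromosome 6 and 52.6% both without the 5 genes and without the called genes. The difference between pools was 0.523 points with at least 2 reads, 2.84 with at least 5 and 0.936 with the wider set, never past the threshold. At least 5 reads left 7 sites, a ratio to intergenic span of 2.27 and a strand share of 14.3%, neither past the threshold. With 30 sites, the interval of the ratio to coding span ran from 0.544 to 1.19.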
